A study of Mus musculus with 4 samples.

Results

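The genes described here encode the enzymes of the pentose phosphate pathway and of cytosolic NADPH supply in mouse macrophages, together with the NAD(P)H-consuming quinone reductase gene Nqo1. They were taken as the 10 rows of the deposited gene table whose symbol is G6pdx, Pgls, Pgd, Rpia, Rpe, Tkt, Taldo1, Me1, Idh1 or Nqo1, out of 34745 rows in all. Each symbol matched 1 row, and the 10 genes lie on 8 chromosomes. The cells were adherent primary macrophages washed from the peritoneal cavity of wildtype C57BL/6 mice 3 days after an injection of 2 ml of 3% thioglycolate broth, which draws monocytes into the cavity. Every culture was stimulated with lipopolysaccharide (LPS), the outer membrane component of Gram-negative bacteria, at 100 ng/ml for 4 hours. Of the 4 libraries, 2 came from cells given the solvent DMSO before LPS and 2 from cells given MB-3 at 50 µM, which the submitters present as an inhibitor of GCN5, an acetyltransferase. No cells without LPS were analysed here, so neither the LPS response nor the effect of MB-3 alone was measured. The series title speaks of bone marrow-derived macrophages, whereas every sample is labelled as peritoneal, and the samples' own labels are used here.

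The pentose phosphate pathway branches off glycolysis at glucose-6-phosphate. Its oxidative arm reduces NADP+ to NADPH and ends in a pentose phosphate, and its non-oxidative arm interconverts pentoses with sugars of glycolysis through isomerase, epimerase, transketolase and transaldolase reactions. NADPH is the reducing agent for glutathione and thioredoxin systems and for lipid synthesis, and in activated macrophages also the substrate of the phagocyte oxidase and of inducible nitric oxide synthase. Several of these genes, among them G6pdx, Pgd, Taldo1, Tkt, Me1 and Nqo1, are known targets of NRF2, the transcription factor that binds antioxidant response elements together with small MAF proteins.

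The libraries held 15598531 to 21320618 counts, so 1 count was worth 0.0469 to 0.0641 CPM (counts scaled to a common library size). Nothing in the labels says whether the libraries of a group came from separate cultures or animals, so p-values reflect the spread between these libraries alone, which may be technical. Macrophage markers summed to 24313 and 24894 CPM with DMSO and to 30889 and 30738 CPM with MB-3 over 7 genes, and Lyz2 alone made up 21558 and 22129 CPM, and 28304 and 28296 CPM, of these sums. Itgam, also on the macrophage list, was left out because its symbol matched 2 rows. The markers did not move together: Lyz2, Cd68 and Csf1r were called higher, Cd14, Fcgr1 and Mertk lower, and Adgre1 was not called. Of the lists for 8 other cell types of the cavity, that of mesothelial cells with fibroblasts had the highest sum. It was 47.9 and 101 CPM with DMSO and 64.2 and 123 CPM with MB-3. Dcn made up most of it, 39.5 and 80.1 CPM, and 52.2 and 99.7 CPM, while Msln stayed at or under 0.335 CPM. The neutrophil list summed to 21.7 and 22.4 CPM with DMSO and to 12.3 and 10.0 CPM with MB-3. Nearly all of this was S100a8, which was lower (log2 fold change -1.02, edgeR adjusted p = 0.00372), while Ly6g and Elane were at 0 in every library, and the part of these cells in the members' values was not tested. The B cell, T cell, NK cell, mast cell, eosinophil and dendritic cell lists stayed at or under 7.54 CPM. In RNA from whole cultures, fewer cells of a type and less RNA per cell cannot be told apart.

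MB-3 raised the level of 7 of the 10 transcripts and lowered that of 2, and 1 was not called. The 4 largest rises, of Pgd, Idh1, Nqo1 and Me1, were between 4.68-fold and 5.91-fold. G6pdx rose 2.35-fold, Taldo1 1.80-fold and Tkt 1.38-fold, while Rpe and Rpia fell and Pgls was not called. The call of Rpia was lost with DESeq2 (adjusted p = 0.154). Genes were called at an adjusted p under 0.05 in the quasi-likelihood test of edgeR, with p-values adjusted by Benjamini and Hochberg over 11841 genes. MB-3 moved many genes: 37.1% of those tested were called, 16.9% as higher and 20.2% as lower. The median log2 fold change of the members was 1.04, against -0.01 over all tested genes. The groups did not overlap for 9 members, 7 higher and 2 lower, against 70.8% of all tested genes, 33.8% as higher and 37.0% as lower. Together the 10 genes took 0.0999% of all counts in the second DMSO library, nearly the same in the first, and 0.241% and 0.258% in the MB-3 libraries.

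**Figure D1:**
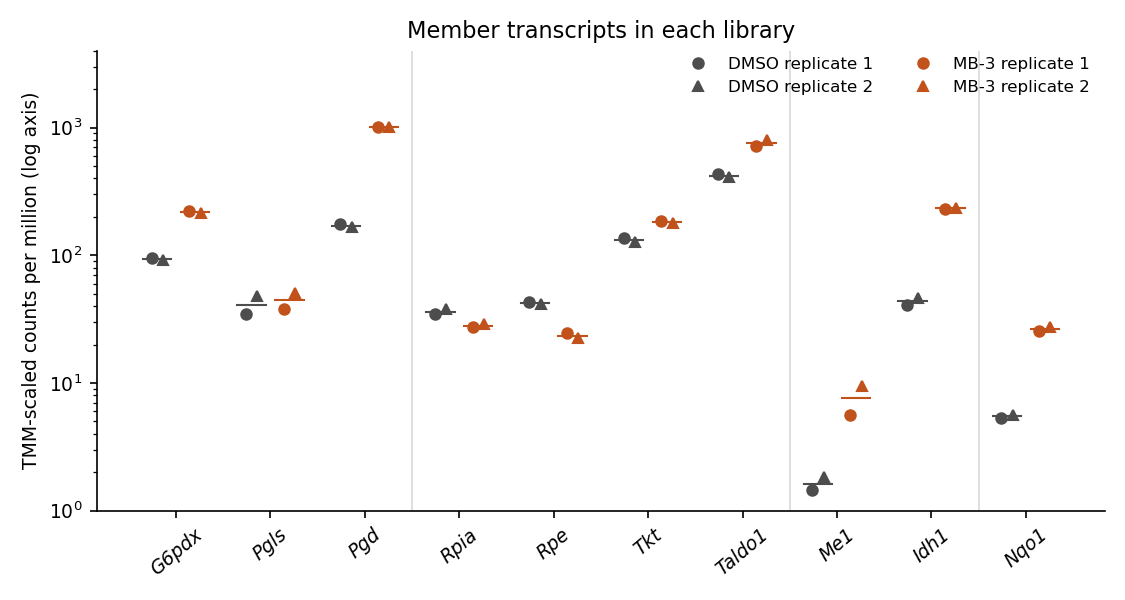
Level of each member in each library, as TMM-scaled CPM on a log axis. Points are single libraries (circles, replicate 1; triangles, replicate 2), short bars are group means, and vertical lines part the oxidative arm, the non-oxidative arm, the cytosolic NADPH enzymes Me1 and Idh1, and Nqo1. The groups are apart for every member except Pgls.

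The oxidative arm changed at its dehydrogenases. G6pdx (ENSMUSG00000031400, chromosome X from 74409483 to 74429194) encodes glucose-6-phosphate dehydrogenase, which catalyses the committed and NADPH-yielding first step. Its DMSO libraries were at 95.2 and 91.5 CPM, its MB-3 libraries at 224 and 215 CPM. Both MB-3 libraries thus stood above both DMSO libraries, and replicates differed by 0.06 on the log2 scale in each group. The log2 fold change was 1.23 (SE 0.076), with an edgeR adjusted p of 8.91e-05.

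Pgd (ENSMUSG00000028961, chromosome 4 from 149149991 to 149166771) encodes phosphogluconate dehydrogenase, the other NADPH-yielding enzyme of the arm. It was at 176 and 167 CPM with DMSO and at 1020 and 1007 CPM with MB-3, which made it the most abundant member in CPM after MB-3. This was the largest fold change among the members, 2.56 on the log2 scale (SE 0.071, edgeR adjusted p = 5.80e-06), and it rested on 2665 to 18259 counts per library.

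Pgls (ENSMUSG00000031807, chromosome 8 from 71592176 to 71601092) encodes the lactonase that acts between the dehydrogenases. Its levels were 34.4 and 47.7 CPM with DMSO and 38.3 and 50.3 CPM with MB-3. The groups overlapped, and the second library of each group was the higher one, by 0.47 and 0.39 on the log2 scale. A change of 0.11 on the log2 scale (SE 0.19) missed the threshold (edgeR adjusted p = 0.682), and its sign turned without DMSO replicate 1 (-0.06) and without MB-3 replicate 2 (-0.10). The summed mesothelial and fibroblast markers, mostly Dcn, were also higher in the second library of each group, and their part in the Pgls values was not tested. Pgls also overlaps Fam129c on the same strand, a gene with 4 to 18 counts per library.

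Matches to the core of the antioxidant response element were looked for in the RefSeq promoter windows of the members, which run from 250 bases before to 50 bases after each start site (GRCm38.p6, 13 windows for 10 genes). The motif searched was TGACNNNGC on both strands. It was present in 3 of the 13 windows (23.1%), those of Pgd, Me1 and G6pdx, and in 12.4% of all 32851 windows. The 3 matches are shown with their surroundings because they belong to members that rose, each 5′ to 3′ on the strand that reads TGAC, with the match in capitals:
Pgd, chr4:149166060-149166089, minus strand: atttcagagcTGACATTGCactgatcggac
Me1, chr9:86695901-86695930, minus strand: gatgccgccgTGACTCAGCgcttctcgcgg
G6pdx, chrX:74428919-74428948, plus strand: gcgtgtgcttTGACTGAGCtgacccgcctc

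The match of Me1 spans its start site, from base -6 to base 3, in the direction of the gene, and GENCODE M21 places it in a UTR exon. Its first bases also read TGACTCA, the AP-1 motif, which 5.20% of all windows hold and no other member's window does. The match of G6pdx lies 57 to 49 bases before the RefSeq start site on the strand opposite to the gene, but inside the gene as GENCODE M21 annotates it, in a UTR exon. That of Pgd lies at bases 4 to 12 after the second of its annotated start sites, which is 623 bases downstream of the first, and GENCODE M21 places it in coding sequence. The remaining members that rose, Idh1, Nqo1, Taldo1 and Tkt, had no such match in their windows, nor did Pgls, Rpia and Rpe. A match describes the letters only, binding was not measured, and elements outside these windows were not searched.

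In the non-oxidative arm the isomerase and epimerase genes fell and the transferase genes rose, but the call of the isomerase gene depended on the method. Rpe (ENSMUSG00000026005, chromosome 1 from 66700831 to 66719805) encodes the epimerase that makes xylulose phosphate from ribulose phosphate. It was at 43.4 and 41.3 CPM with DMSO and at 24.6 and 22.4 CPM with MB-3, a 1.81-fold lower level without overlap. The log2 fold change was -0.85 (SE 0.10, edgeR adjusted p = 0.00133). Kansl1l lies on the opposite strand and shares 558 bases with Rpe transcripts. Kansl1l had 187 and 85 counts in the DMSO libraries against 309 and 271 after MB-3, so it went the other way. Reads from the shared stretch cannot be told apart, because the strand setting of the counting is not given in the sources used here.

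Rpia (ENSMUSG00000053604, chromosome 6 from 70765720 to 70792232) encodes the isomerase that makes the ribose phosphate used for nucleotides. Its levels were 34.4 and 37.7 CPM with DMSO and 27.4 and 28.8 CPM with MB-3. The groups did not overlap but lay close to each other, with a log2 fold change of -0.36 (SE 0.10, edgeR adjusted p = 0.0360). The call was lost without any 1 of the 4 libraries (edgeR adjusted p of 0.0739 without DMSO replicate 1, 0.148 without DMSO replicate 2, 0.151 without MB-3 replicate 1 and 0.0875 without MB-3 replicate 2) and with DESeq2 (adjusted p = 0.154). Stretches of Rpia transcripts also resemble transcripts of 38 other genes at 95% identity or more over at least 100 bases. Both its level and its change between groups are therefore uncertain where the counting shared reads. These genes did not move together: A530040E14Rik went from 5004 and 2576 counts with DMSO to 1255 and 873 with MB-3, Dhx33 from 320 and 329 to 439 and 429. Their part in the Rpia values was not tested.

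Tkt (ENSMUSG00000021957, chromosome 14 from 30548359 to 30574722) encodes transketolase, which moves 2-carbon units between sugar phosphates. It was at 137 and 128 CPM with DMSO and at 186 and 180 CPM with MB-3, with a log2 fold change of 0.47 (SE 0.078, edgeR adjusted p = 0.00516). Taldo1 (ENSMUSG00000025503, chromosome 7 from 141392199 to 141402968) encodes transaldolase, which moves 3-carbon units. It was at 430 and 409 CPM with DMSO and at 715 and 799 CPM with MB-3, a log2 fold change of 0.85 (SE 0.081, edgeR adjusted p = 5.30e-04). For both genes each MB-3 library was above each DMSO library. Gm17823 in GENCODE M21 has a transcript with 94.8% identity to Taldo1 over 1016 bases. The Taldo1 counts are therefore uncertain where the counting shared reads.

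Outside the pathway, the members Idh1 and Me1 encode cytosolic NADP+-dependent enzymes, and both rose. Mthfd1 and Aldh1l1, further genes of NADPH production described below, were called lower. Idh1 (ENSMUSG00000025950, chromosome 1 from 65158616 to 65186500) encodes cytosolic isocitrate dehydrogenase. It went from 41.0 and 46.6 CPM with DMSO to 231 and 236 CPM with MB-3, a log2 fold change of 2.42 (SE 0.094, edgeR adjusted p = 1.83e-05). Rpe, which fell, lies on the same chromosome.

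Me1 (ENSMUSG00000032418, chromosome 9 from 86581371 to 86695953), the gene of cytosolic malic enzyme, was the least abundant member, with 31 and 29 counts in the DMSO libraries against 101 and 171 after MB-3. In CPM these were 1.44 and 1.82 against 5.64 and 9.54, so the groups did not overlap but the MB-3 libraries differed by 0.76 on the log2 scale, the widest replicate gap among the members. The log2 fold change of 2.23 (SE 0.34, edgeR adjusted p = 0.00377) had the largest standard error among the members. On the log2(FPKM + 1) scale, which compresses low values, it was 0.84 in limma. GENCODE M21 holds 3 other genes, Gm7049, Gm48795 and Gm7329, with transcripts that match Me1 at 98.4% identity or more, so the Me1 counts are uncertain where the counting shared reads.

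Nqo1 (ENSMUSG00000003849, chromosome 8 from 107388225 to 107403206) encodes a reductase that uses NADH or NADPH to detoxify quinones, and is a consumer rather than a source. It was at 5.36 and 5.64 CPM with DMSO and at 25.4 and 27.5 CPM with MB-3. The log2 fold change was 2.27 (SE 0.13, edgeR adjusted p = 7.05e-05), and the groups were well apart although the DMSO values rested on 115 and 90 counts.

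**Figure D2:**
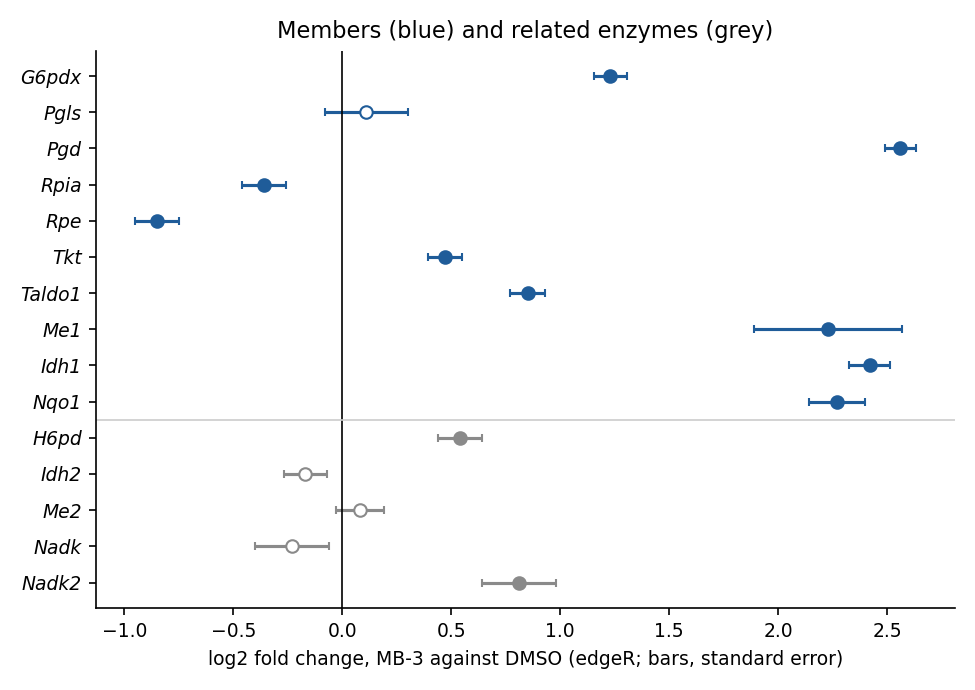
Log2 fold change of MB-3 against DMSO from edgeR for the 10 members (blue) and for paralogs and NAD kinases (grey), with bars of 1 standard error. Filled points passed an adjusted p of 0.05. Pgd, Idh1, Nqo1 and Me1 lie between 2.23 and 2.56, whereas Idh2 and Me2 lie near 0.

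The levels of different genes were compared per length, with the deposited FPKM values (fragment counts per length of the gene and depth of the library). Taldo1 had the highest level in every library, 171 and 165 FPKM with DMSO and 272 and 316 FPKM with MB-3. With DMSO it was followed by G6pdx and Pgd, whose values adjoined each other (24.8 and 24.3 against 24.2 and 23.3 FPKM), then by Tkt, Rpe and Idh1, Pgls, Rpia, Nqo1 and Me1. Neighbours in this order could lie close: the lower Rpe value was 10.6 FPKM and the higher Idh1 value 10.5, and the lower Pgls value was 6.34 FPKM and the higher Rpia value 6.30. Whether these neighbours differ was not tested. With MB-3 Pgd was second at 135 and 138 FPKM, followed by G6pdx at 56.1 and 56.0 and Idh1 at 49.4 and 52.4, while Rpe was at 5.97 and 5.64.

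The gene lengths behind these values were up to 5.13 times as long as the longest coding transcript in GENCODE M21, the factor for Pgls, and of the same length for Nqo1. Per length of that transcript, an alternative chosen after the data were seen, the mean levels with DMSO were 313 for Taldo1, 78.4 for Pgd, 41.6 for Tkt, 39.2 for Pgls and 35.7 for G6pdx. On that scale Pgd stood above G6pdx already with DMSO, and Pgls moved from among the lower members to the level of Tkt. Pgls, far below G6pdx in FPKM with DMSO, had the higher mean of the pair per transcript length (39.2 against 35.7). The order of members therefore depends on the gene model, also for some that lay far apart in FPKM, although Taldo1 was highest on both scales. The change of any single gene between groups does not depend on the length used.

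Ratios within a library need no scaling between libraries. The FPKM level of Pgd relative to G6pdx was 0.973 and 0.962 with DMSO and 2.40 and 2.46 with MB-3, a difference of 1.33 on the log2 scale. The oxidative arm relative to the non-oxidative arm, as sums of FPKM, went from 0.269 and 0.283 to 0.644 and 0.579. The share of Taldo1 in the summed FPKM of the 7 pathway genes went from 65.4% and 64.5% to 54.0% and 57.1%, and that of Pgd from 9.25% and 9.11% to 26.7% and 24.9%. Per transcript length the arm ratio was 0.375 and 0.411 with DMSO and 0.957 and 0.874 with MB-3. In FPKM, Taldo1 relative to Tkt went from 9.28 and 9.44 to 11.4 and 13.1, and Rpe relative to Rpia from 1.94 and 1.69 to 1.38 and 1.19. With transcript lengths instead, Rpe relative to Rpia went from 0.851 and 0.739 to 0.605 and 0.523. Which of Rpe and Rpia was higher thus depends on the length used, while the ratio fell on both scales. None of these ratios overlapped between the groups. The exact permutation test, two-sided, gave p = 0.333 for each of 10 ratios tested, the smallest p that 2 libraries against 2 can give, so the design cannot reach the threshold for a ratio.

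**Figure D3:**
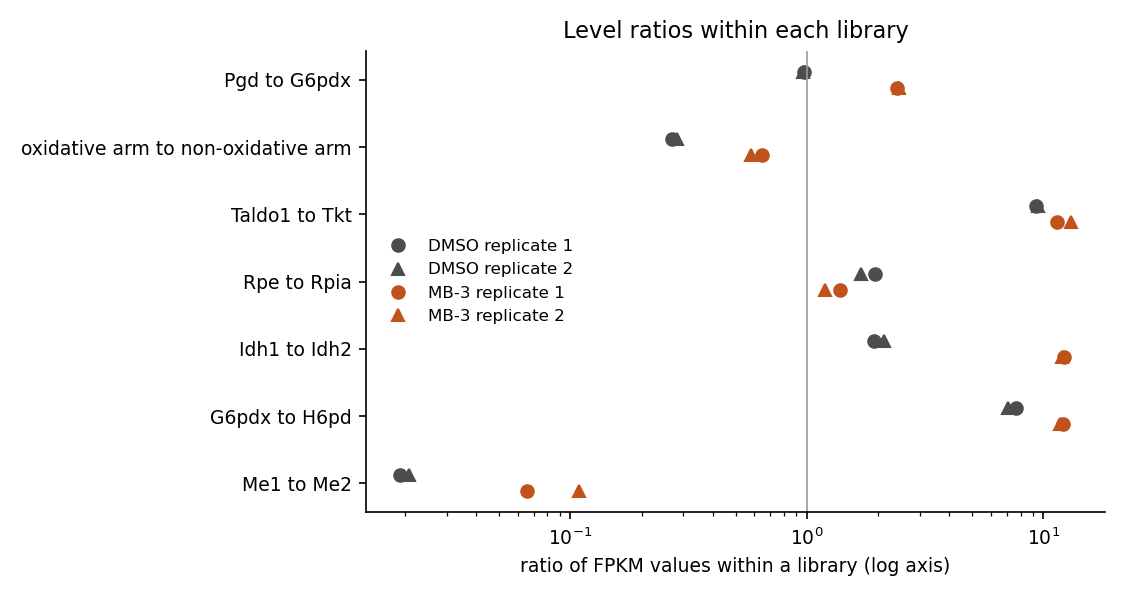
Ratio of FPKM values between genes or arms within each library, on a log axis with a line at 1. The DMSO points (grey) and MB-3 points (orange) are apart for each ratio plotted: Pgd to G6pdx went from 0.973 and 0.962 to 2.40 and 2.46, and G6pdx to H6pd from 7.68 and 7.05 to 12.1 and 11.8.

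Paralogs of Idh1 and Me1 in other compartments did not pass the test or had no counts. Idh2, the gene of mitochondrial NADP+-dependent isocitrate dehydrogenase, was at 24.2 and 25.2 CPM with DMSO and 21.7 and 22.4 CPM with MB-3, a change of -0.17 on the log2 scale (SE 0.10, edgeR adjusted p = 0.263). The FPKM ratio of Idh1 to Idh2 was 1.93 and 2.11 with DMSO and 12.2 in the first MB-3 library, with a slightly lower value in the second, a difference of 2.58 on the log2 scale (exact permutation p = 0.333, the smallest possible). Me2, which encodes the mitochondrial NAD+-dependent malic enzyme, had a log2 fold change of 0.08 (SE 0.11, edgeR adjusted p = 0.579), and the ratio of Me1 to Me2 went from 0.0190 and 0.0207 to 0.0656 and 0.109. Me3, the mitochondrial NADP+-dependent form, had 0 counts in each library, as did the transketolase-like genes Tktl1 and Tktl2.

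H6pd, which encodes the counterpart of G6pdx in the endoplasmic reticulum, rose from 18.9 and 19.8 to 28.3 and 27.8 CPM, by 0.54 on the log2 scale (SE 0.10, edgeR adjusted p = 0.00910). The ratio of G6pdx to H6pd went from 7.68 and 7.05 to 12.1 and 11.8. G6pd2, an autosomal copy with 93.2% identity to G6pdx over 2332 bases, had 0 counts with DMSO and 3 and 2 counts with MB-3. G6pdx also overlaps Ikbkg on the opposite strand over 281 transcribed bases. Ikbkg had 914 and 404 counts in the DMSO libraries against 1133 and 853 after MB-3.

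Of 11 other tested genes listed with NADPH production, 1 was higher, H6pd, and 3 were lower, with a median log2 fold change of -0.20. The list is broad and not limited to enzymes that make NADPH, since it holds Me2, the NAD+-dependent malic enzyme gene. Over all genes 16.9% were higher and 20.2% lower, so the list's counts are near the background. The 3 lower genes encode folate enzymes: Mthfd2 from 311 and 290 CPM to 232 and 210 CPM (log2 fold change -0.45, SE 0.084), Mthfd1 (-0.58, SE 0.16) and Aldh1l1 (-1.32, SE 0.33). The folate genes Mthfd1l, Mthfd2l and Aldh1l2 were not called, and the count of lower genes was 1 with DESeq2 and without DMSO replicate 2, MB-3 replicate 1 or MB-3 replicate 2. Among 8 tested genes of NAD and NADP supply, 1 was higher and 1 lower, against 37.1% called over all genes. Nadk, the gene of the cytosolic kinase that makes NADP+, was at 143 and 105 CPM with DMSO and at 116 and 95.7 CPM with MB-3 and did not pass (-0.23, SE 0.17, edgeR adjusted p = 0.335). Nadk2, which encodes the mitochondrial kinase, rose (0.81, SE 0.17), and Nampt, the gene of the rate-limiting enzyme of NAD salvage, was lower (-0.27, SE 0.062), a call lost without DMSO replicate 1, MB-3 replicate 1 or MB-3 replicate 2. Of 8 tested neighbours of the pathway, only Prps2, which encodes a synthetase that turns ribose phosphate into the nucleotide precursor, was called (-0.92, SE 0.15), as lower, while 2 or 3 of the list were lower under 6 of 12 alternatives. Tigar, the gene of a phosphatase that diverts sugar towards the pathway, had an edgeR adjusted p of 0.0504 (-0.33, SE 0.10).

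Genes of reductases that consume NADPH were more often higher than lower. Of 17 tested, 10 were higher and 2 lower, against 16.9% and 20.2% over all genes, with a median log2 fold change of 0.70. The count of higher genes was 10 under each of 12 alternatives, and that of lower genes was 0 with DESeq2, with a mean of at least 10 CPM, and without DMSO replicate 1, MB-3 replicate 1 or MB-3 replicate 2, and 1 without DMSO replicate 2. Txnrd1, which encodes the cytosolic thioredoxin reductase, rose from 284 and 250 CPM to 1461 and 1423 CPM (2.43, SE 0.085), and Por, the gene of the electron donor of microsomal cytochromes P450, rose from 33.5 and 28.8 to 147 and 149 CPM (2.25, SE 0.10). The lists were chosen with earlier results of these data known and share libraries with the members, so the counts are a description.

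**Figure D4:**
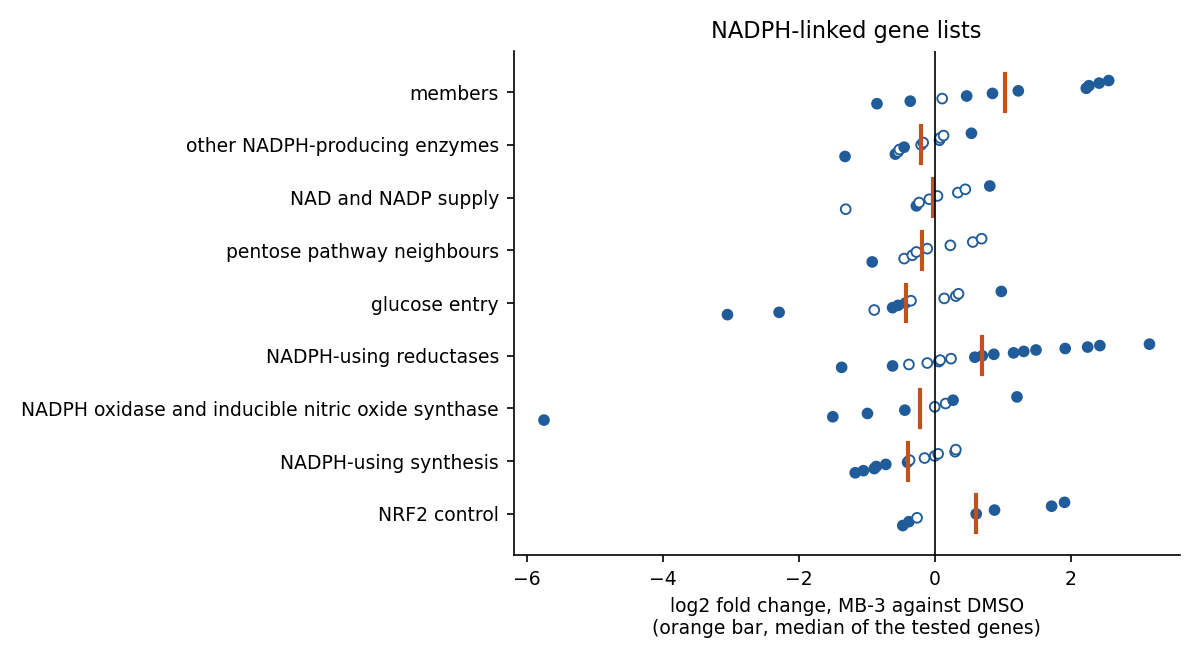
Log2 fold change of MB-3 against DMSO for the tested genes of the members and of 8 lists of NADPH-linked genes. Each point is a gene, filled where the edgeR adjusted p was under 0.05, and the orange bar is the median, which was 1.04 for the members, 0.70 for the reductases and between -0.43 and 0.61 for the other lists.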

How the data were processed

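RNA was enriched with oligo(dT) beads and made into strand-specific libraries, per the labels' protocols. The authors deposited 1 table with a count and an FPKM value per gene and library. The deposited counts are whole numbers, not normalized, per the file headers. Each deposited FPKM value was the count over a gene length and the total of its library, within 0.1% in 100% of pairs. HISAT2, StringTie 1.3.0 and edgeR, with GRCm38.p4 and mm10 as builds, are named per the submitters' processing notes. Not given in the sources used here: the strand setting and the treatment of multiply mapped reads. Columns were assigned through the group letter and number in their names.

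The test was that of edgeR 4.0.16 under R 4.3.3 (filterByExpr, TMM factors of 0.966 to 1.02, glmQLFit, glmQLFTest, group only, Benjamini-Hochberg over 11841 genes). All 10 members passed the filter. CPM is TMM-scaled, and a standard error is the log2 fold change divided by the root of F. Alternatives used DESeq2 1.42.0 and limma 3.58.1. Replicates differed by more than sampling noise (chi-square per degree of freedom 13.0 and 11.1). The edgeR fit was tested on simulated data. Similar transcripts were found with megablast in GENCODE M21.

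The members, lists and tests were chosen with earlier results of these data known. Besides the members, the rule named paralogs, NAD kinases, the 2 smallest p-values of each list, and called genes of lists with 5 or fewer.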

Additional observations from a re-analysis of the deposited data

How the results depend on the processing

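The 7 higher members were called as higher under each of 12 alternatives in which they were tested; with a mean of at least 10 CPM, Me1 was not tested and 6 were higher. The count of lower members was 2 under 7 alternatives and 1 under the 4 that leave out a library and under DESeq2, where Rpia was not called. Pgls reversed to -0.06 and -0.10 without DMSO replicate 1 and without MB-3 replicate 2, reached 0.38 without DMSO replicate 2, and was called under none of the 12 alternatives. Over all genes, the count of higher genes was 1283 to 1802 when a library was left out, and over the 8 related lists together the count of lower genes was 12 to 21 against 24. With the replicate number as a replicate block, 7 members were higher and 2 lower, over all genes 2340 were higher and 2706 lower, and Pgls had an edgeR adjusted p of 0.337. The labels say nothing of what a shared number marks, and deviations of same-numbered libraries correlated over genes with 0.217. The ratio of the arms differed by 1.15 on the log2 scale per length, by 1.41 from counts without length and by 1.22 per transcript length. The shorter core TGANNNNGC was in 6 of the 13 member windows, against 41.3% of all windows, and TGACNNNGC on the gene's own strand in 2. Depth limits Me1 and Nqo1, with DMSO counts of 29 to 115.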

Other observations

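Other gene groups that meet NADPH moved in both directions, and their counts stand beside 16.9% of all tested genes called higher and 20.2% called lower. Of 11 tested genes of glucose entry, 1 was higher and 5 were lower. The higher count was 3 with median-ratio size factors and with the replicate block, and 2 with DESeq2, with no filter, with a mean of at least 10 CPM and without DMSO replicate 1 or MB-3 replicate 1. The lower count was 3 without DMSO replicate 1, MB-3 replicate 1 or MB-3 replicate 2. Slc2a6, which encodes a lysosomal sugar transporter, fell from 249 and 210 CPM to 30.5 and 25.1 CPM (log2 fold change -3.05, SE 0.14), and Hk2, a hexokinase gene, by 2.29 (SE 0.14). The rise was that of Slc2a1, the gene of the glucose transporter GLUT1 (0.98, SE 0.086), named after its value was seen. Of 8 tested genes of the phagocyte oxidase and inducible nitric oxide synthase, 2 were higher and 4 lower. The higher count was 1 without DMSO replicate 2, MB-3 replicate 1 or MB-3 replicate 2, with limma and with library totals alone, and 3 with the replicate block. Nos2 fell by 5.75 (SE 0.18), from 1134 and 752 counts with DMSO to 19 and 14 with MB-3. The size of its fall therefore rests on few counts in the MB-3 libraries. Ncf1, the gene of the organizer subunit, fell from 199 and 196 CPM to 71.9 and 67.6 CPM. Of 12 tested genes of NADPH-using synthesis, 6 were lower and the remaining 6 were not called. The lower count was 4 without DMSO replicate 1, 3 without MB-3 replicate 1 and 2 without MB-3 replicate 2. The lower genes include the sterol demethylase gene Cyp51 (-1.05, SE 0.092) and the squalene epoxidase gene Sqle (-0.86, SE 0.15).

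Among 7 genes of NRF2 control, 4 were higher, under each of 12 alternatives too, and 2 were lower. The lower count was 0 without DMSO replicate 1, MB-3 replicate 1 or MB-3 replicate 2, 1 with DESeq2, limma and median-ratio size factors, and 3 without DMSO replicate 2 and with the replicate block. Bach1, which encodes a repressor at antioxidant response elements, rose from 37.6 to 141 CPM on average (1.91, SE 0.096), and Mafg, the gene of a small MAF protein, from 61.7 to 204 CPM (1.72, SE 0.10). The other higher genes were Nfe2l2, the gene of NRF2 (0.88, SE 0.096), and Maff (0.61, SE 0.11). The lower genes were Keap1 (-0.38, SE 0.11) and Mafk (-0.47, SE 0.10). Nfe2l2, Maff, Keap1 and Mafk were named after their values were seen. Calls are from the quasi-likelihood test of edgeR, adjusted by Benjamini and Hochberg over all tested genes.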
